A study of Mus musculus with 9 samples.

Results

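The extracellular matrix and proteoglycan genes described here are 40 named rows of a count table of 22601 genes, of which 22299 had a count. They were chosen by name, with earlier results of these data known. They comprise 8 perineuronal net genes, 13 collagen genes, 5 sulfation genes, 9 matrix glycoprotein genes, 3 testican genes and 2 genes of cell surface receptors. Their transcripts were measured by single-cell RNA-seq in 829 cells of the mouse central amygdala, a forebrain nucleus made up mostly of GABAergic neurons. All 9 samples belonged to 1 group: wild-type B6 mice with no treatment named, from whose acute slices the nucleus was microdissected and dissociated, with the cells pooled over slices. Every comparison is therefore between classes of cells within the same samples. The labels give no age or sex, and a deposited cell table gives 3 animal numbers crossed with 3 date fields, so that the 9 samples may not be 9 animals and a p-value here reflects no more than how far these samples vary, which may be technical.

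The brain's extracellular matrix is built on hyaluronan, to which chondroitin sulfate proteoglycans of the lectican family (aggrecan, brevican, neurocan and versican) are fastened by link proteins and cross-linked by tenascins. Around some neurons, best known for parvalbumin-expressing cortical interneurons, this material condenses into perineuronal nets. Collagens form fibrils, basement membranes and membrane-bound proteins. Sulfotransferases and sulfatases set the sulfate pattern of heparan and chondroitin sulfate chains, which decides what these chains bind, and testicans are small secreted proteoglycans abundant in brain.

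A cell was called positive for a gene when at least 1 per 10000 of its gene counts came from that gene, which is 12.7 counts in a cell of the median depth of 126576 counts. Cells positive for a GABAergic gene (Slc32a1, Gad2 or Gad1) but negative for both vesicular glutamate transporter genes, Slc17a6 and Slc17a7, were taken as inhibitory neurons, 810 in all, and the remaining 19 cells were set aside. The neurons were split by 5 markers: Prkcd (protein kinase C delta), Cartpt (a neuropeptide precursor), Sst (somatostatin), Isl1 (a LIM homeobox factor) and Nr2f2 (a nuclear receptor). The classes were Prkcd-positive neurons with Cartpt (204) and without it (139), Sst-positive neurons without Prkcd (125), Isl1-positive neurons (76), Nr2f2-positive neurons (116) and neurons with none of the 5 markers (198). The classes overlap, and 26 of the Prkcd neurons with Cartpt and 21 of those without were also in the Nr2f2 class.

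Total gene counts were between 8522750 and 22730327 per sample. Of the 376 well barcodes 368 occurred in 2 or more samples, and 0 cells had the same counts as another. Transcripts of other cell types were present in many neurons: 336 of the 810 were positive for at least 1 of the glial, vascular or microglial markers, 210 of them for Mbp, a myelin gene. The summed level of the 7 oligodendrocyte markers over all inhibitory neurons had a lowest value of 102, a median of 127 and a highest of 3087 CPM over the samples, CPM being the count scaled to the total of all genes in the sum. The 4 endothelial markers summed to at most 1.07 CPM, the 5 astrocyte markers to at most 6.55 CPM and the 5 microglial markers to at most 3.05 CPM, with C1qa and C1qb at 0. The 7 mural and fibroblast markers, which include type I collagen genes, reached 52.5 CPM in 1 sample and had a median of 3.75 CPM.

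Of the 40 members, 8 were positive in at least 10% of neurons, as a mean over the 9 samples: Spock1, Spock2, Spock3, Sdc2, Col6a1, Col25a1, Sparcl1 and Ncan. A further 11 members were positive in fewer than 10 neurons each, of which Col15a1 and Fn1 in none. A share depends on a transcript's length and capture as well as on the cells, so shares of different genes are a description here and levels are compared between classes.

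**Figure D1:**
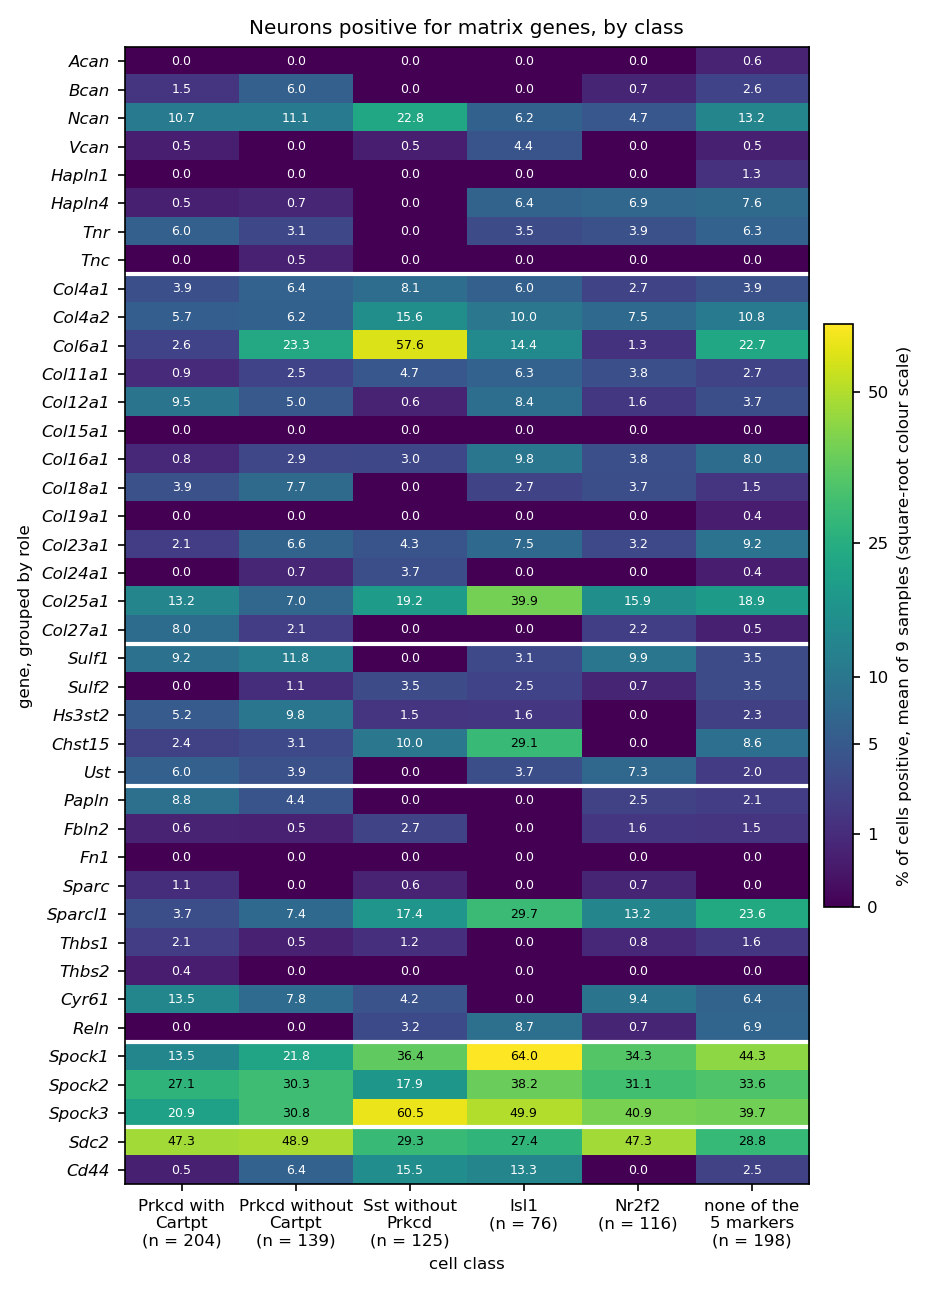
Share of neurons positive for each of the 40 matrix genes (rows, grouped by role) in 6 cell classes (columns, with their number of neurons). Each cell gives the mean over 9 samples of the percent of positive neurons, on a square-root colour scale. Col6a1 reached 57.6% in Sst neurons and Spock1 64.0% in Isl1 neurons, while Acan, Hapln1 and Tnc were at or near 0 in every class.

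Acan, which encodes aggrecan and marks most nets, was positive in 1 of 810 neurons and had a count in 16. Hapln1, the gene of the main link protein of nets, was positive in 3 neurons, and Tnc (tenascin-C) in 1. Vcan (versican) was positive in 7 neurons, 3 of them in the Isl1 class.

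Ncan (neurocan) was positive in 12.3% ± 3.89 of neurons (SD, n = 9) and with at least 1 count in 46.1%. Its share was 22.8% ± 10.2 in Sst neurons, 10.7% ± 6.80 in Prkcd neurons with Cartpt, 6.25% ± 11.3 in Isl1 neurons and 4.72% ± 6.59 in Nr2f2 neurons. Its summed level did not pass in the test between Prkcd and Sst neurons given below. Tnr (tenascin-R, which cross-links lecticans) was positive in 33 neurons and in 0 of 125 Sst neurons. That allows a share of up to 2.4% if the pooled neurons are counted as independent. Bcan (brevican) was positive in 16 neurons, 11 of them Prkcd-positive. Hapln4, the gene of a brain link protein, was positive in 29 neurons, of which 15 had none of the 5 markers, 6 were in the Nr2f2 class, 5 in the Isl1 class and 2 in the Prkcd classes. Of the 810 neurons 635 were positive for none of the 8 net genes, 162 for 1 and 13 for 2 or more.

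Of the 810 neurons 354 were positive for none of the 13 collagen genes, 308 for 1 and 148 for 2 or more. At least 1 of the 13 genes was positive in 75.1% ± 14.8 of Sst neurons and 72.5% ± 14.4 of Isl1 neurons, against 38.7% ± 16.6 of Prkcd neurons with Cartpt and 36.2% ± 11.8 of Nr2f2 neurons (SD, n = 9 each). Between these lay neurons with none of the 5 markers (61.8% ± 12.2) and Prkcd neurons without Cartpt (53.8% ± 10.6). Col6a1, a chain of beaded-filament collagen VI, and Col25a1, a membrane collagen of neurons, were positive in 171 and 144 neurons. Basement membrane collagen IV was also present: Col4a2 was positive in 76 neurons and Col4a1 in 36. Positive neurons numbered 33 for Col16a1, 49 for Col23a1, 26 for Col11a1, 19 for Col27a1, 7 for Col24a1 and 1 for Col19a1.

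**Figure D2:**
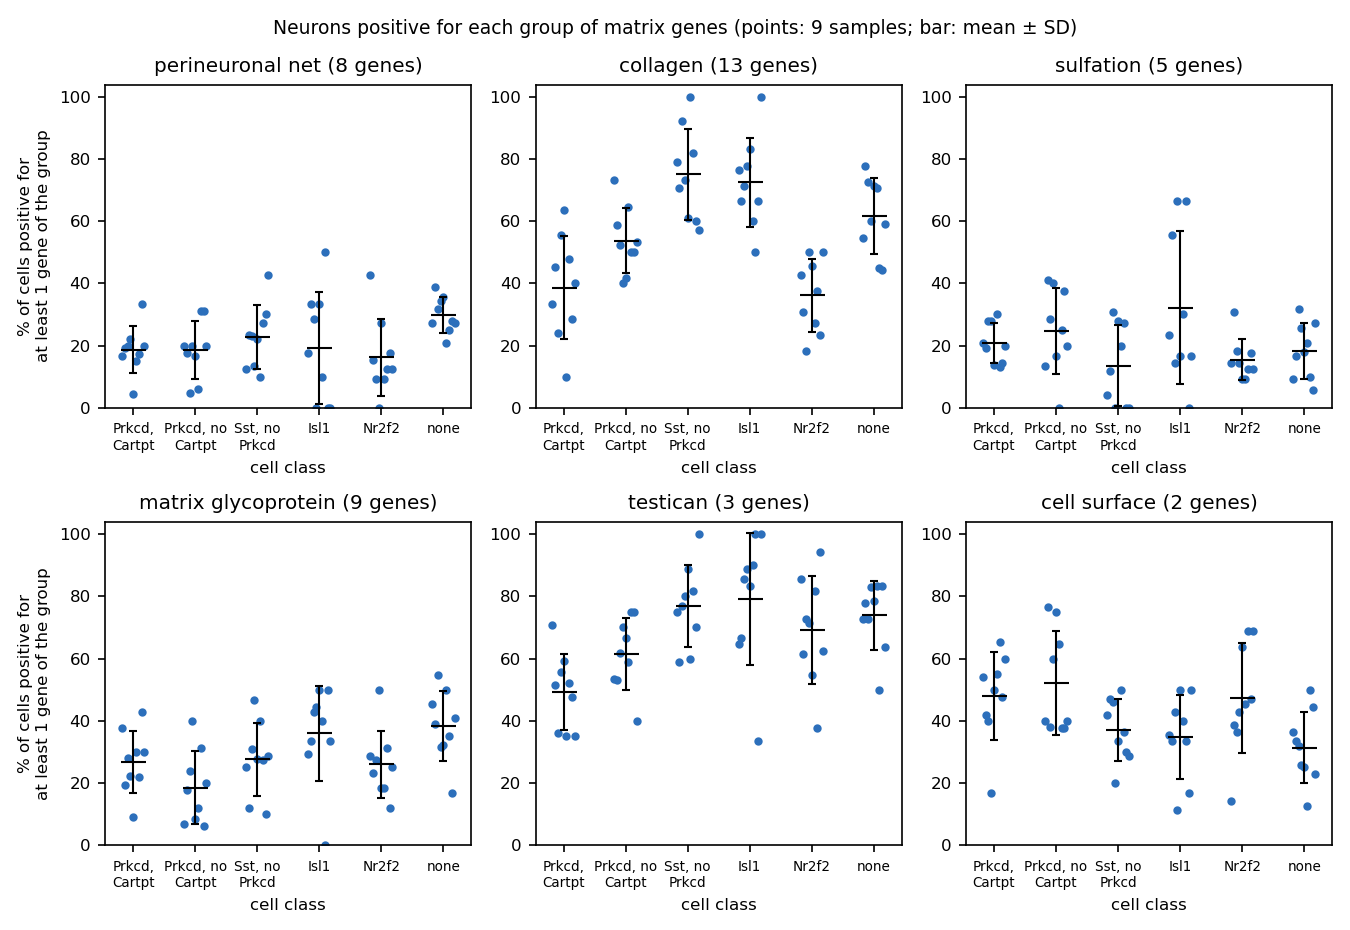
Percent of neurons positive for at least 1 gene of each of 6 groups of matrix genes, by cell class. Points are the 9 samples, and bars are the mean ± SD. Collagens and testicans have their highest means in Sst and Isl1 neurons, and the net genes have means of 16.3% in Nr2f2 neurons to 29.9% in neurons with none of the 5 markers.

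The first comparison asked how neurons of the Prkcd class (320 neurons positive for Prkcd and not Sst) and of the Sst class (125 positive for Sst and not Prkcd) differ in matrix genes. Counts were summed per sample and class and tested with edgeR's quasi-likelihood test with the sample as a block, and p-values were adjusted (Benjamini-Hochberg) over all genes tested, with a threshold of 0.05. The CPM of single genes in these sums given from here on are scaled by edgeR's normalization factors (TMM). Summed levels of marker lists and ratios of summed levels are scaled to the total of all genes alone. Of the 40 members, 21 passed the filter on low counts, and of these 7 were higher and 5 lower in Prkcd neurons. Over all 10398 genes tested, 4.38% were higher and 4.06% lower, 8.43% in either direction. The filter keeps a gene through the class in which it is high, so the members left are not a neutral sample of the 40. The 40 were themselves chosen with earlier results of these data known. A count of members above the share of all genes is therefore not a test of the group, here and below. The median log2 fold change was 0.15 over the tested members and 0.16 over all genes.

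Among the members that passed, Prkcd neurons held the higher levels of 2 collagens, 2 sulfation enzymes, 2 matrix glycoproteins and 1 syndecan. Papln, which encodes papilin, a glycoprotein of basement membranes, had 13.4, 18.4 and 33.3 CPM (lowest, median and highest of 9 samples) in Prkcd neurons and 0 counts in Sst neurons. Against a floor of 3 counts over the Sst class it was at least 126-fold higher (edgeR adjusted p = 0.00549). For Papln 22 of 320 Prkcd neurons were positive, against 0 of 125 Sst neurons, which allows up to 2.4% if pooled neurons are counted as independent. The classes did not overlap in any sample. Sulf1, an extracellular enzyme that removes sulfate from heparan sulfate, had 8.15, 24.4 and 44.3 CPM in Prkcd neurons and 0, 0 and 4.81 CPM in Sst neurons. The classes did not overlap (log2 fold change 6.36 ± 0.87 SE, edgeR adjusted p = 0.000265), and the summed level in Prkcd neurons was 45.8-fold that in Sst neurons. Hs3st2, a heparan sulfate sulfotransferase, had 9.57, 16.0 and 61.8 CPM in Prkcd neurons and 0, 1.62 and 17.0 CPM in Sst neurons (log2 fold change 3.52 ± 0.91, edgeR adjusted p = 0.0255, summed ratio 3.86). It was higher in Prkcd neurons in 9 of 9 samples, although the ranges overlap, and the call was lost without sample 1, 2, 4, 6 or 8 (adjusted p = 0.0516 to 0.0641).

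Col12a1, the gene of a fibril-associated collagen, had 3.42, 22.2 and 37.8 CPM in Prkcd neurons and 0, 0 and 12.7 CPM in Sst neurons (log2 fold change 6.18 ± 1.03 SE, edgeR adjusted p = 0.00127). 1 Sst sample lay inside the Prkcd range, and the ratio of the summed levels was 7.76, smaller than the fitted fold. Col18a1, whose product carries heparan sulfate in basement membranes, was also higher in Prkcd neurons. It had a log2 fold change of 5.39 ± 0.91 (edgeR adjusted p = 0.00141) and a summed ratio of 20.5. Cyr61, a secreted matricellular protein and early response gene, had 8.36, 39.8 and 65.0 CPM in Prkcd neurons and 0, 6.61 and 20.9 CPM in Sst neurons (log2 fold change 2.85 ± 0.65, edgeR adjusted p = 0.0126). It was higher in all 9 samples, and its ranges overlap only through the lowest Prkcd sample. Sdc2, which encodes the transmembrane heparan sulfate proteoglycan syndecan-2, had 113, 166 and 199 CPM in Prkcd neurons and 45.7, 72.2 and 152 CPM in Sst neurons. It too was higher in 9 of 9 samples (log2 fold change 1.01 ± 0.17 SE, edgeR adjusted p = 0.00126).

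The 5 members that were lower in Prkcd neurons included 2 collagens and 2 of the 3 testicans. Col6a1 had 1.01, 23.6 and 59.7 CPM in Prkcd neurons and 33.2, 269 and 334 CPM in Sst neurons. The difference was seen in all 9 samples, and 1 Sst sample fell inside the Prkcd range (log2 fold change -3.38 ± 0.43 SE, edgeR adjusted p = 0.000146). Positive neurons were 21 of 320 Prkcd neurons and 71 of 125 Sst neurons. Spock3 (testican-3) had 39.0, 69.0 and 135 CPM in Prkcd neurons and 129, 215 and 343 CPM in Sst neurons (log2 fold change -1.72 ± 0.20, edgeR adjusted p = 5.05e-05). The classes touched only at their edges. Spock1 (testican-1) had 36.4, 52.0 and 105 CPM in Prkcd neurons and 50.5, 120 and 152 CPM in Sst neurons, lower in all 9 samples (log2 fold change -1.03 ± 0.21, edgeR adjusted p = 0.00529). Spock2 (testican-2), the third member, had 78.8 ± 10.3 CPM in Prkcd neurons and 70.0 ± 17.6 CPM in Sst neurons (SD, n = 9 each) and did not pass (edgeR adjusted p = 0.741).

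Col25a1, whose product is shed from the neuronal membrane and binds amyloid beta, had 20.5, 25.7 and 79.6 CPM in Prkcd neurons and 39.6, 67.2 and 225 CPM in Sst neurons. It was lower in 9 of 9 samples with overlapping ranges (log2 fold change -1.40 ± 0.29 SE, edgeR adjusted p = 0.00747). Sparcl1, which encodes the synapse-promoting protein hevin, had 0.507, 11.7 and 44.2 CPM in Prkcd neurons and 1.803, 57.8 and 129 CPM in Sst neurons, lower in 8 of 9 samples (log2 fold change -2.69 ± 0.67, edgeR adjusted p = 0.0206). That call was lost without sample 6, 7 or 9 (adjusted p = 0.051 to 0.0596). The 9 tested members that did not pass were Cd44, Chst15, Col4a1, Col4a2, Ncan, Spock2, Col23a1, Tnr and Ust, with log2 fold changes between -2.39 and 4.04. Ncan had 33.3 ± 11.8 CPM in Prkcd neurons and 44.0 ± 16.3 CPM in Sst neurons (SD, n = 9 each, edgeR adjusted p = 0.461). Tnr had 3.69, 9.39 and 21.2 CPM in Prkcd neurons and 0, 3.14 and 12.7 CPM in Sst neurons (edgeR adjusted p = 0.231). Reln, which encodes the secreted protein reelin, was filtered out here, with 0 of 320 Prkcd neurons and 4 of 125 Sst neurons positive. Other filtered members were uneven in both directions and have no test. Col27a1 and Bcan had 651 and 356 counts in Prkcd neurons and 0 and 1 in Sst neurons. Col24a1 and Col11a1 had 18 and 202 counts in Prkcd neurons and 138 and 660 in Sst neurons.

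**Figure D3:**
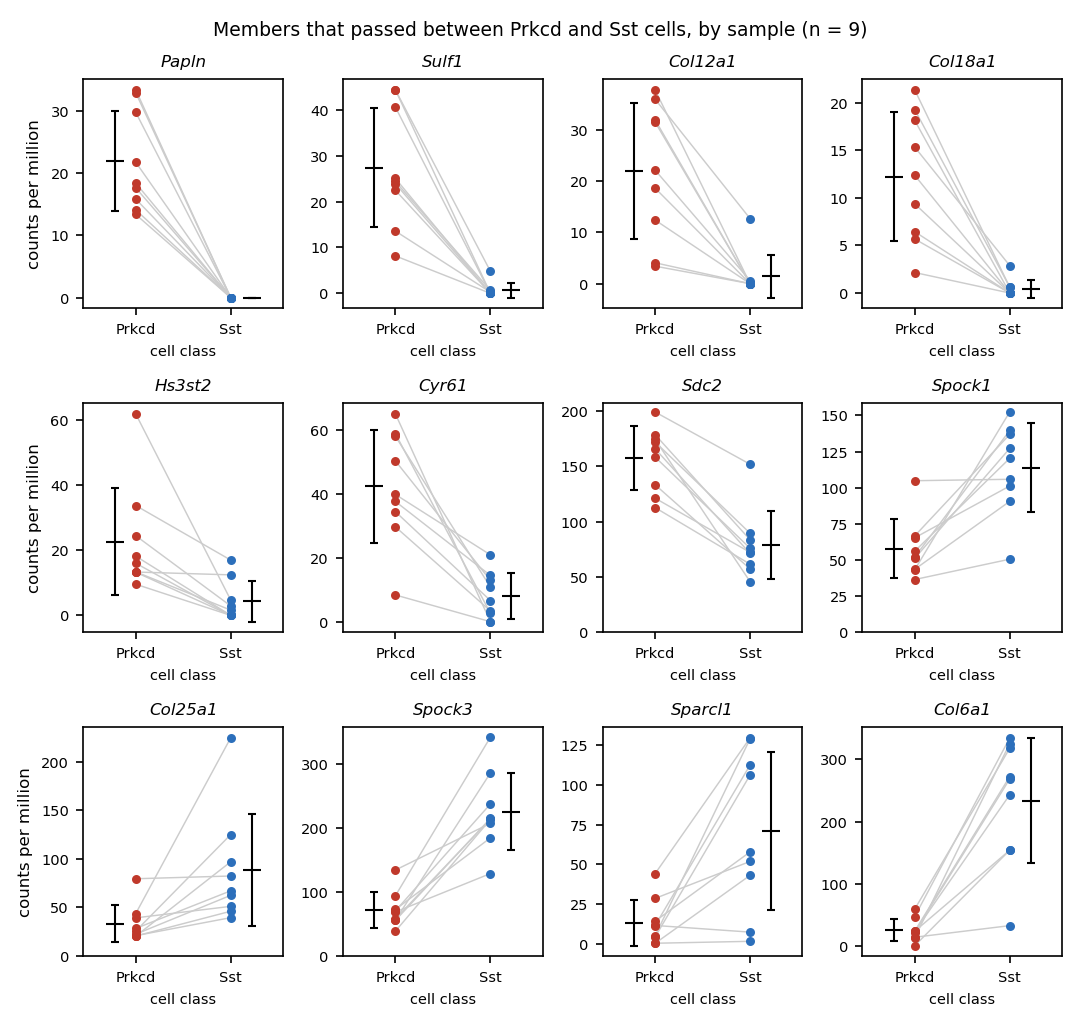
CPM of the 12 members that passed between Prkcd neurons (red, left) and Sst neurons (blue, right). Points are the 9 samples, lines join the classes of 1 sample, and bars are the mean ± SD. Papln is at 0 in every Sst sample, and Col6a1 and Spock3 are higher in Sst neurons in all 9 samples.

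Markers of other cell types were measured in the same sums. Mbp averaged 91.0 CPM in Prkcd and 90.3 CPM in Sst neurons (edgeR adjusted p = 0.887). The 7 oligodendrocyte markers summed to 127 to 223 CPM in Prkcd neurons and 37.8 to 165 CPM in Sst neurons, with Mog at 0 in the Sst class, and the 5 neuron markers to 2661 to 3323 CPM in Prkcd neurons and 3906 to 6134 CPM in Sst neurons. Without the neurons positive for any glial, vascular or microglial marker, 9 of the 12 members could be tested and 5 passed: Sulf1, Sdc2, Col6a1, Col25a1 and Spock3. With equal numbers of neurons drawn for both classes 7 of the 12 could be tested and 3 passed, namely Col6a1 (log2 fold change -2.79, edgeR adjusted p = 0.000903), Spock3 (-1.82, adjusted p = 0.00143) and Spock1 (-1.19, adjusted p = 0.0276). Papln, Sulf1, Col12a1, Col18a1 and Hs3st2 had too few counts to be tested in that setting. With sums over the 3 animal numbers in place of samples Col12a1, Col18a1, Col25a1 and Hs3st2 did not pass, and with sums over the 3 date fields Cyr61 did not pass either. The part of cell numbers and of other cells' transcripts in the remaining calls was not tested.

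The promoters of Col6a1 and Spock1, a collagen and a testican gene that were both lower in Prkcd than in Sst neurons, are shown as the 250 bases before the start of each gene, from RefSeq on mouse build GRCm38.p6. They were picked after the motif search, as the 2 member promoters that hold TGANTCA, so its presence in both is not a finding, and the promoters of the other lower members are not shown. The count table itself was made on another build, so these coordinates do not apply to it. Capitals mark the motifs TGANTCA and GGGCGG, the GC box, each searched on both strands. TGANTCA is a loose form of the AP-1 site, whose middle base is C or G, and the match in Spock1 is TGAATCA.
Col6a1 (chr10:76726045-76726294, minus strand): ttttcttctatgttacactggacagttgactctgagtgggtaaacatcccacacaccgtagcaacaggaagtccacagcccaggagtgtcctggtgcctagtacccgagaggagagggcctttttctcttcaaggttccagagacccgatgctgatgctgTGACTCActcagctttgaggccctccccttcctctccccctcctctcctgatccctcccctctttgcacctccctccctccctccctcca
Spock1 (chr13:57908333-57908582, minus strand): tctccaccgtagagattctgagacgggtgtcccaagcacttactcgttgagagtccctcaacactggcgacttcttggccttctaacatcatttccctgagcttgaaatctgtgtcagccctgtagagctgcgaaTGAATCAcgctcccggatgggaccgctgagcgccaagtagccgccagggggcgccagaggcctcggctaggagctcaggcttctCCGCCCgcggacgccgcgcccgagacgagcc

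TGANTCA occurred once in each of these promoters and GGGCGG once in that of Spock1, as CCGCCC on the strand printed. Of the 40 members 32 were matched by symbol in the promoter table. Each member was counted once, while repeats of a gene among all promoters were not removed. TGANTCA was found in 2 of these 32 promoters and in 6.75% of all 32851 promoters of the same length. GGGCGG was found in 20 of the 32 and in 32.7% of all. AGGTCA, a nuclear receptor motif, was found in 3 of the 32 and in 14.0% of all, and TAATTA, a homeodomain core, in 0 of the 32 and in 4.84% of all. A match of letters is a description and not a site.

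Next, all 343 Prkcd-positive neurons were split by Cartpt, including 23 that were also positive for Sst. Those with Cartpt (204) were compared with those without it (139). Of the members, 22 were tested and 0 were higher and 0 lower by edgeR, where 0.413% and 0.212% of all 9919 genes tested were higher and lower, 0.625% in either direction. At an unadjusted p under 0.05 edgeR gave 6 higher and 3 lower members, and DESeq2 called 5 higher and 3 lower. Over all genes tested 4.95% were higher and 3.62% lower at that unadjusted p, and DESeq2 called 2.25% higher and 1.98% lower. The median log2 fold change was 0.05 over the tested members and 0.04 over all genes.

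By DESeq2 the higher members were Col12a1, Col25a1, Col27a1, Papln and Ust and the lower ones Bcan, Col23a1 and Col6a1. Col6a1 had 0, 14.7 and 37.5 CPM in Prkcd neurons with Cartpt and 7.60, 94.3 and 172 CPM in those without, with 6 of 204 and 34 of 139 neurons positive. Of the 320 Prkcd neurons without Sst only 21 were positive for it. All the other Col6a1-positive neurons on both sides of the split were therefore among the 23 that also held Sst, and made up most of those 23. The part of the 23 neurons with both markers in this difference was not tested. Col6a1 was lower with Cartpt in 8 of 9 samples (log2 fold change -3.47 ± 0.86 SE, edgeR adjusted p = 0.114). It passed with equal neuron numbers (-5.08, edgeR adjusted p = 0.0121), without the filter (adjusted p = 0.0191), without the sample block (adjusted p = 0.0349), without sample 4 (adjusted p = 0.0371), with sums per animal number (adjusted p = 0.0444) and in DESeq2 (adjusted p = 0.000683). Col27a1, the gene of a fibrillar collagen, had 4.58, 15.3 and 43.8 CPM with Cartpt and 0, 0 and 11.6 CPM without (log2 fold change 4.53 ± 1.31, edgeR adjusted p = 0.203, summed ratio 8.56). Col23a1, which encodes a membrane collagen, had 0, 0.340 and 14.8 CPM with Cartpt and 1.34, 19.0 and 53.2 CPM without (log2 fold change -3.66 ± 1.01, edgeR adjusted p = 0.169, summed ratio 0.208).

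Papln, Sulf1 and Col12a1 were present on both sides of the Cartpt split. Papln had 12.1, 23.3 and 50.4 CPM with Cartpt and 0, 8.28 and 54.0 CPM without (edgeR adjusted p = 0.56), and Sulf1 had 11.1, 21.8 and 66.5 CPM with Cartpt and 0, 22.2 and 60.0 CPM without (adjusted p = 0.996). Col12a1 had 5.63, 23.4 and 53.3 CPM with Cartpt and 0, 7.09 and 49.7 CPM without (adjusted p = 0.477). Bcan and Tnr had values on opposite sides, with log2 fold changes of -3.38 ± 1.33 and 1.75 ± 0.75 SE, and neither passed (edgeR adjusted p = 0.452 and 0.516, summed ratios 0.175 and 2.37). With 18 to 31 and 10 to 21 neurons per sample and each of these genes in few of them, such ranges are wide.

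Isl1-positive neurons (76, with 6 to 17 per sample) were compared with the other 734 inhibitory neurons. Few of the 76 were Prkcd-positive: 3 were Prkcd neurons with Cartpt and 9 were Prkcd neurons without it. Of all 810 neurons 343 were Prkcd-positive, so the others held a larger share of Prkcd neurons. The part of this make-up in the differences below was not tested. Of 26 members tested 3 were higher and 3 lower, where 1.7% and 3.15% of all 11169 genes tested were higher and lower, 4.85% in either direction. The median log2 fold change was -0.79 over the tested members and -0.34 over all genes. Where many sums were 0, the fitted fold change and the ratio of the summed counts differed in size, so the ratio of the summed levels is given too for genes with such sums.

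The 3 members higher in Isl1 neurons were a sulfotransferase, a membrane collagen and a testican. The collagen and the testican were also lower in Prkcd than in Sst neurons. Chst15, which adds a further sulfate to chondroitin sulfate, had 13.5, 74.0 and 211 CPM in Isl1 neurons and 1.48, 17.8 and 38.6 CPM in the others, higher in 8 of 9 samples. Its summed level was 5.35-fold that of the others and 23 of 76 Isl1 neurons were positive, against 40 of 734 others (log2 fold change 2.68 ± 0.62 SE, edgeR adjusted p = 0.0219). The call was lost without sample 2, 4, 6, 8 or 9 (adjusted p = 0.0513 to 0.0629). Col25a1 had 56.1, 113 and 268 CPM in Isl1 neurons and 35.9, 59.7 and 80.2 CPM in the others, higher in 9 of 9 samples (log2 fold change 1.15 ± 0.22, edgeR adjusted p = 0.00761). Spock1 had 93.8, 205 and 402 CPM in Isl1 neurons and 72.5, 110 and 121 CPM in the others (log2 fold change 0.98 ± 0.18, edgeR adjusted p = 0.00586). In 8 of 9 samples it was higher, and 49 of 76 Isl1 neurons were positive, against 217 of 734 others.

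The 3 members lower in Isl1 neurons were Cyr61, Papln and Sdc2, all of which were also higher in Prkcd than in Sst neurons. Cyr61 had 3 counts in all 76 Isl1 neurons, with 0, 0 and 0.655 CPM, and 4.95, 28.0 and 45.6 CPM in the others. The ratio of the summed levels was 0.00822, with a 95% counting interval of 0.00169 to 0.024 (edgeR adjusted p = 0.000258), and no samples overlapped. Papln had 0, 0 and 5.56 CPM in Isl1 neurons and 6.30, 11.4 and 17.1 CPM in the others, a summed ratio of 0.146 (log2 fold change -5.18 ± 1.12 SE, edgeR adjusted p = 0.0159). It was lower in 9 of 9 samples, with 22 counts in Isl1 neurons in all. Sdc2 had 16.3, 65.8 and 96.0 CPM in Isl1 neurons and 88.7, 119 and 157 CPM in the others, lower in 9 of 9 samples (log2 fold change -0.90 ± 0.22, edgeR adjusted p = 0.0321), and its call was lost without sample 2, 5, 6, 7 or 8 (adjusted p = 0.0587 to 0.0679).

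Of the members that did not pass, Sparcl1 had 0, 131 and 298 CPM in Isl1 neurons and 25.9, 51.1 and 115 CPM in the others (edgeR adjusted p = 0.338). Reln had 0, 28.2 and 74.5 CPM in Isl1 neurons and 2.28, 10.1 and 34.6 CPM in the others (adjusted p = 0.689), with 7 of 76 and 20 of 734 neurons positive. Tnr, Sulf1 and Col12a1 had log2 fold changes of -1.25 ± 1.05, -2.08 ± 1.04 and -0.88 ± 1.004 SE and did not pass (edgeR adjusted p = 0.523, 0.28 and 0.646). Their summed ratios were 1.04, 0.441 and 0.645, that of Tnr on the other side of 1 from its fold change. With equal neuron numbers 15 members could be tested, 4 of the 6 called ones among them, and none passed by edgeR. The 7 oligodendrocyte markers summed to 51.0 to 145 CPM in Isl1 neurons and 101 to 3380 CPM in the others. Without the neurons positive for other cell types' markers Spock1 alone of 4 tested called members passed (adjusted p = 0.03). The part of these transcripts in the other calls was not tested. With sums over the 3 animal numbers Papln and Sdc2 did not pass, and with sums over the 3 date fields Cyr61 alone passed.

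**Figure D4:**
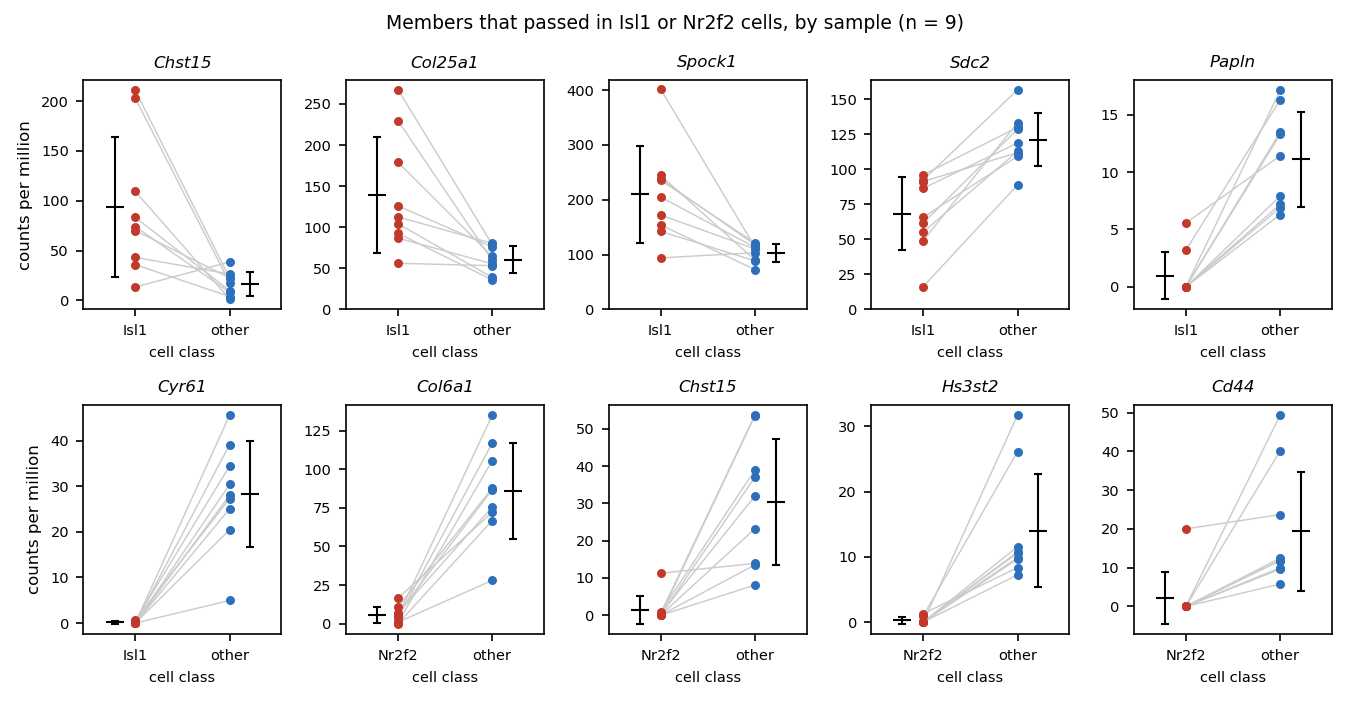
CPM of the members that passed in Isl1 neurons (first 6 panels) and in Nr2f2 neurons (last 4), red at left, beside all other inhibitory neurons, blue at right. Points are the 9 samples, lines join the classes of 1 sample, and bars are the mean ± SD. Cyr61 is near 0 in all 9 Isl1 samples, and Chst15, high in Isl1 neurons, is near 0 in 8 of 9 Nr2f2 samples.

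Nr2f2-positive neurons (116, with 7 to 17 per sample) were compared with the other 694. Of 26 members tested 0 were higher and 4 lower, where 0.409% and 1.28% of all 11008 genes tested were higher and lower, 1.69% in either direction. Among members, 1 was higher at an unadjusted edgeR p under 0.05 (Sdc2) and DESeq2 called 0 higher, against 2.78% and 1.58% of all genes. The median log2 fold change was -0.83 over the tested members and -0.24 over all genes.

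The 4 members lower in Nr2f2 neurons were a collagen, 2 sulfotransferases and a hyaluronan receptor, with medians of 0 to 5.001 CPM in the class. Col6a1 had 0, 5.001 and 16.5 CPM in Nr2f2 neurons and 28.0, 86.8 and 135 CPM in the others, with no overlap between samples. The summed ratio was 0.0731, and 2 of 116 Nr2f2 neurons were positive, against 169 of 694 others (log2 fold change -4.17 ± 0.51 SE, edgeR adjusted p = 0.000994). Chst15 had 0, 0 and 11.3 CPM in Nr2f2 neurons and 8.09, 31.9 and 53.6 CPM in the others, a summed ratio of 0.0529 (log2 fold change -6.13 ± 0.99, edgeR adjusted p = 0.00625). It was positive in 0 of 116 Nr2f2 neurons, which allows a share of up to 2.59% if pooled neurons are counted as independent.

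Cd44, the gene of the main hyaluronan receptor, had 0, 0 and 20.0 CPM in Nr2f2 neurons and 5.77, 11.8 and 49.3 CPM in the others, a summed ratio of 0.0689 (log2 fold change -6.93 ± 1.21 SE, edgeR adjusted p = 0.0105). All of its 20 counts in the Nr2f2 class came from 1 sample. Hs3st2 had 4 counts in the Nr2f2 class, a summed ratio of 0.0192 and a log2 fold change of -6.17 ± 0.98 (edgeR adjusted p = 0.0059). With equal neuron numbers Col6a1 and Chst15 could be tested and had log2 fold changes of -4.01 and -5.92 with edgeR adjusted p = 0.0749 and 0.0503. Cd44 and Hs3st2 could not be tested there. Without neurons positive for other cell types' markers Col6a1 and Chst15 passed (adjusted p = 0.0195 and 0.0367). With sums over the 3 animal numbers Col6a1 alone passed, and with sums over the 3 date fields none of the 4 did.

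Other members showed how sparse transcripts behave in these sums. Reln had a median of 0.373 and a highest value of 156 CPM in Nr2f2 neurons, with 1 of 116 neurons positive, and 0.260, 17.4 and 20.0 CPM in the others. Its log2 fold change was -4.54 ± 1.37 SE although its summed ratio was 1.47, and it did not pass (edgeR adjusted p = 0.133, and 0.0146 without sample 9). Papln likewise had a log2 fold change of -2.70 ± 1.36 and a summed ratio of 1.05 (adjusted p = 0.401). Sulf1 had 7.66, 22.02 and 71.4 CPM in Nr2f2 neurons and 2.96, 15.5 and 21.2 CPM in the others (adjusted p = 0.375). Tnr and Col12a1 did not pass either (edgeR adjusted p = 0.674 and 0.0714, summed ratios 0.823 and 0.232), Col12a1 with 0.0413 without sample 4.

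**Figure D5:**
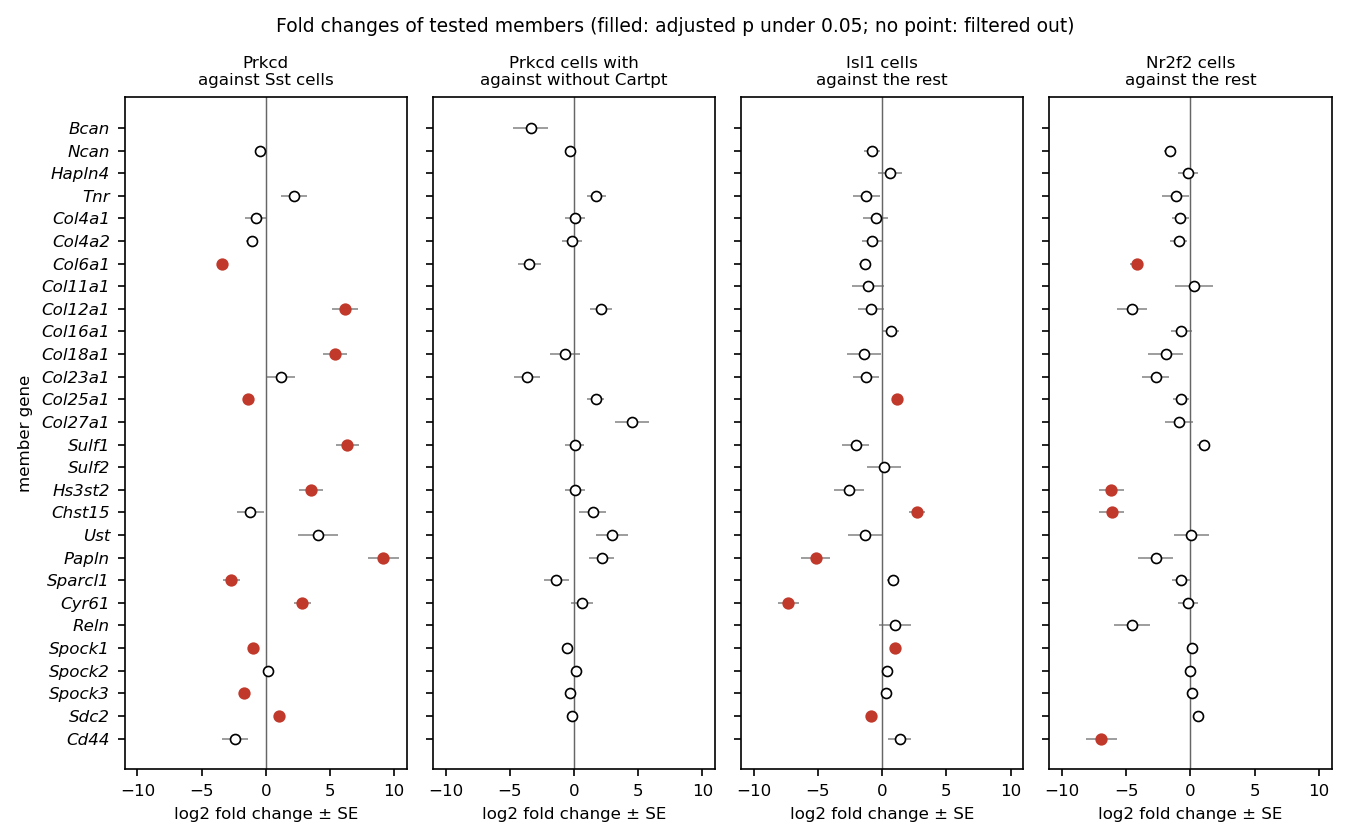
Log2 fold change ± SE of every member that could be tested, in 4 comparisons. Filled points passed at an edgeR adjusted p under 0.05, open points did not, and a missing point means that the gene was filtered out. Col6a1 lies left of 0 in all 4 comparisons and Col25a1 lies left in the Prkcd comparison and right in the Isl1 comparison.

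Over the 4 comparisons 28 of the 40 members were tested at least once, 14 passed in at least 1, and 14 passed in none. Of the 11342 genes tested at least once, 11.4% passed in at least 1. The members were chosen with earlier results of these data known, so their count is not tested against this share. The 12 that were never tested were Acan, Vcan, Hapln1, Tnc, Col15a1, Col19a1, Col24a1, Fbln2, Fn1, Sparc, Thbs1 and Thbs2. Of these Fbln2 (fibulin-2) was positive in 9 neurons, 4 of them in the Sst class, Col24a1 in 7, 5 of them in the Sst class, and Thbs1 (thrombospondin-1) in 10, 5 of them Prkcd neurons with Cartpt. The comparisons use the same neurons in part, so their calls are not independent of each other.

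These genes lie in a wider pathway. With earlier results of these data known, 119 further genes were listed for it in 7 groups, 115 of them in the table. Between Prkcd and Sst neurons 57 of these could be tested, and 4 were higher and 7 lower in Prkcd neurons, where 4.38% and 4.06% of all genes tested were. Among heparan sulfate enzymes (15 tested) Ndst3, which starts sulfation of the chain, was lower, with 0.955, 6.53 and 11.9 CPM in Prkcd neurons and 5.08, 43.2 and 86.7 CPM in Sst neurons (log2 fold change -2.78 ± 0.59 SE, edgeR adjusted p = 0.00745). Hs6st2, a sulfotransferase, was lower as well (-1.13 ± 0.22, adjusted p = 0.00434). Of 12 chondroitin sulfate enzymes tested Chpf, a chain polymerising factor, was lower (-0.61 ± 0.15, adjusted p = 0.0208). Of 11 cell surface proteoglycans Ptprz1, a receptor phosphatase that is also made as the secreted proteoglycan phosphacan, was higher. It had 69.0, 108 and 146 CPM in Prkcd neurons and 16.3, 31.8 and 76.7 CPM in Sst neurons (log2 fold change 1.68 ± 0.28, edgeR adjusted p = 0.00152). In the same group Aplp2 was higher (0.58 ± 0.09, adjusted p = 0.000911) and App, the amyloid precursor, lower (-0.46 ± 0.08, adjusted p = 0.00206).

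Of 7 matrix proteases and inhibitors tested, Plat (tissue plasminogen activator) and Adamts18 were higher in Prkcd neurons (log2 fold change 2.28 ± 0.62 and 4.49 ± 1.12 SE, edgeR adjusted p = 0.0342 and 0.0213, summed ratios 3.76 and 5.67), and Mmp17 was lower (-1.73 ± 0.47, adjusted p = 0.0342). Of 8 integrins and matrix receptors Ptprf, a receptor phosphatase that binds heparan sulfate proteoglycans, was lower, with 22.2, 38.9 and 78.2 CPM in Prkcd neurons and 68.5, 136 and 229 CPM in Sst neurons. It was lower in 9 of 9 samples (log2 fold change -1.76 ± 0.22, edgeR adjusted p = 0.000129). Itgb8 was lower too (-3.22 ± 0.92, adjusted p = 0.0426). No hyaluronan gene and no laminin or basement membrane gene passed, of 2 tested in each group.

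Several of these calls were lost with 1 sample left out. The call of Itgb8 was lost without any sample except 8 (adjusted p = 0.0511 to 0.0967). That of Plat was lost without any sample except 4 and 8 (0.0502 to 0.0891) and that of Mmp17 without any except 8 and 9 (0.0562 to 0.0926). Adamts18 lost it without sample 1, 2, 3 or 6 (0.0511 to 0.0533), and Chpf without sample 3 or 6 (0.0572 and 0.0549). In Prkcd neurons with and without Cartpt 0 of 55 tested pathway genes passed by edgeR, 1 was higher and 3 lower at an unadjusted p under 0.05, and DESeq2 called 1 higher and 3 lower. The shares over all genes are those given above for the members. In Isl1 neurons Ptprf was higher than in the others (log2 fold change 1.24 ± 0.17 SE, edgeR adjusted p = 0.00105), with 116, 221 and 408 CPM in Isl1 neurons and 58.8, 103 and 128 CPM in the others, and so was Timp2, a protease inhibitor (0.47 ± 0.10, adjusted p = 0.0162). Lower were Ndst3, Chsy1, Has1 and Adamts3, the first 3 with a median of 0 CPM in Isl1 neurons (log2 fold changes of -6.07 to -2.30 over the 4). These are 2 higher and 4 lower of 63 tested, where 1.7% and 3.15% of all genes were, and the summed ratios of Ndst3, Chsy1 and Has1 were 0.0924, 0.0492 and 0.0499. The call of Adamts3 was lost without any sample except 7 (0.0748 to 0.11).

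Members found in the same neurons were counted for 8 pairs. Spock1 and Spock3 shared 126 of the 810 neurons, where 102.1 would be shared if each sample's neurons held them independently. The log2 odds ratio averaged 0.82 ± 0.58 (SD, n = 9) and was above 0 in 8 of 9 samples (exact two-sided sign-flip permutation test, p = 0.00781, adjusted over 7 tested pairs 0.0137). As shared neurons above that number, a measure chosen after seeing the data, 2.66 ± 1.94 per sample, the exact permutation test gave p = 0.00781, adjusted 0.0547. Independence was taken over all classes of a sample together. The classes differ: 2 or more testicans were positive in 60.2% ± 14.0 of Isl1 neurons and 11.9% ± 6.62 of Prkcd neurons with Cartpt. The part of the classes in the shared neurons was not tested. Within all 343 Prkcd-positive neurons Papln and Sulf1 shared 1 neuron (2.13 if independent), Papln and Col12a1 shared 1 (1.71) and Sulf1 and Col12a1 shared 1 (2.64). By the shared neurons above independence the exact permutation test gave p = 0.234 for Papln and Sulf1, 0.625 for Papln and Col12a1 and 0.141 for Sulf1 and Col12a1, so no departure from independence was detectable. Among net genes Tnr and Bcan shared 0 neurons (0.430 if independent), Tnr and Hapln4 shared 1 (1.30), Bcan and Ncan shared 4 (2.36) and Acan and Hapln1 shared 0. For such rare pairs the odds ratio with 0.5 added to each entry lies above 0 even with no shared neuron, so its calls are not read for them: by the odds ratio 6 of 7 tested pairs passed, and by the shared neurons above independence 0 passed.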

How the data were processed

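The deposited table holds raw read counts per gene and cell, which the authors made. The submitters' processing notes name the build NCBIM37 and the tool Seurat. The sources used here name no aligner, counting rule or strand setting, so genes that overlap or have near-identical copies may share reads. The 91 ERCC rows were dropped. Cells were assigned to samples by the deposited cell table. No doublet caller was run.

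Counts were summed per sample and class, with at least 5 cells per class, and tested with edgeR 4.0.16 (R 4.3.3; TMM, filterByExpr, quasi-likelihood F-test, sample as a block). The sample was the block because both classes came from the same sample. DESeq2 1.42.0 was an alternative. Descriptions used Python 3.11.15, pandas 2.3.3 and scipy 1.17.1. The test was checked on simulated data. The 40 members, the further gene lists and the marker lists were chosen with earlier results of these data known. Members past the threshold with a mean of at least 10 CPM over both classes were given with all values, up to 10 per direction, the other members past it by fold and adjusted p, and the rest by count and range. Papln, Sulf1, Col12a1, Acan, Hapln1, Tnr and Reln were named whatever their result, and of each further list up to 2 genes past the threshold at 10 CPM or more. Other genes named were chosen after their values were seen. A class without any count was set to 3 counts in total, and intervals are exact 95% Poisson intervals. Reads without molecular identifiers are not independent molecules, so floors and intervals cover counting error only. Results on some genes are not reported here.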

Additional observations from a re-analysis of the deposited data

Results flagged for a closer look

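In a group of 9 samples a value far from the others was looked for in 49 groups, and chance flags about 1 in 20. In the Isl1 comparison the log2 difference of Cyr61 (CPM plus 1) was -2.57 in sample 5, and between -5.54 and -4.10 in the other 8 samples. In the Nr2f2 comparison the log2 difference of Chst15 was -0.28 in sample 9, and between -5.77 and -3.18 in the other 8 samples.

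The 19 cells set aside as not inhibitory, which enter no comparison, also held matrix transcripts. Sdc2 was positive in 7 of them (36.8%), Col6a1 in 5 (26.3%), and Fn1, Sparc, Cyr61 and Spock2 in 4 each (21.1%). Fn1, which encodes fibronectin, was positive in 0 of the 810 inhibitory neurons, and Sparc in 3.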

How the results depend on the processing

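Counts of members that passed are given as higher and lower. Most stand without the share of all genes that passed in the same setting, so a larger or smaller count is not a result about the members. RLE size factors and leaving out neurons under 20000 counts kept all these counts. Between Prkcd and Sst neurons (7 and 5) there were 1 and 2 when 1 count made a cell positive, 0 higher with equal cell numbers, and 2 and 3 without neurons positive for other cell types' markers. Leaving out 1 sample gave 5 to 8 higher and 4 to 5 lower. With and without Cartpt (0 and 0) DESeq2 gave 5 and 3, and there was 1 lower without the filter, without the replicate block, with equal cell numbers and with sums per animal number, and 0 to 1 lower with 1 sample left out. For Isl1 (3 and 3) DESeq2 gave 6 lower. Positive at 3 per 10000 and at least 10 cells per class each gave 0 and 0, but both left 2 samples and 1 residual degree of freedom, so the lost calls say nothing of stability. Equal cell numbers also gave 0 and 0. Positive at 1 count gave 5 lower. Without other cell types' markers there were 1 and 0, sums per animal number gave 1 lower, and sums per date field gave 0 and 1. Leaving out 1 sample gave 2 to 4 higher and 2 to 3 lower. For Nr2f2 (0 and 4) the number lower was 9 in DESeq2, 0 at 3 per 10000, 2 at 1 count, 0 with equal cell numbers, 2 without other cell types' markers, 1 with sums per animal number and 0 with sums per date field. It was 4 to 5 with 1 sample left out.

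Log2 fold changes that turned sign were not calls, except those of Chst15 and Sdc2 for Isl1. For Sulf1 with and without Cartpt the value was -0.21 without the replicate block, -0.78 at 3 per 10000, -0.92 with equal cell numbers, -0.93 without other cell types' markers, -0.11 with sums per animal number and -0.091 with sums per date field. It was -0.38 to 0.30 with 1 sample left out. For Isl1 at 3 per 10000, fitted on 2 samples, Chst15 was at -1.50, Col12a1 at 0.96, Reln at -0.69 and Sdc2 at 0.25. Col12a1 was at 0.56 with equal cell numbers and Reln at -0.83 without other cell types' markers. Tnr was at 0.33 with at least 10 cells per class, 0.23 without other cell types' markers and 0.079 with sums per animal number. For Nr2f2 without the replicate block Papln was at 0.25 and Reln at 0.54. Sulf1 was at -1.30 at 3 per 10000 and -0.22 without other cell types' markers. The cause was not tested for any of these.

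Of 7 gene pairs 6 passed by the odds ratio, 5 to 6 with 1 sample left out, 0 at 3 per 10000, where only 1 pair could be tested, and 1 of 7 at 1 count. As shared neurons above independence, a measure chosen after seeing the data, 0 passed, and 5 pairs turned sign: -0.126 neurons per sample for Papln and Sulf1, -0.0788 for Papln and Col12a1, -0.183 for Sulf1 and Col12a1, -0.0478 for Tnr and Bcan and -0.0331 for Tnr and Hapln4. The 8 members positive in at least 10% of neurons became 3 at 3 per 10000 and 20 at 1 count. Few neurons per sample and class limit the members that few neurons hold.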

Other observations

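The 198 neurons with none of the 5 markers enter the comparisons only as part of the other neurons. Reln was positive in 14 of them, of 27 neurons in all, and Hapln4 in 15 of 29. Sulf2, an extracellular sulfatase, was positive in 9 of 17 neurons and Col16a1 in 15 of 33. All 3 neurons positive for Hapln1 and the 1 neuron positive for Acan were among them. Sparcl1 was positive in 50 of these 198 neurons, and Tnr in 13. At least 1 net gene was positive in 29.9% ± 5.72 of them (SD, n = 9). The 7 oligodendrocyte markers summed to 51.3 to 9770 CPM in these neurons over the samples, against at most 259 CPM in the 5 other classes of the plot of shares. The 4 oligodendrocyte precursor markers had a median of 0 and reached 317 CPM in 1 sample, and the part of these transcripts was not tested. The values were picked after they were seen and are given with no test.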
